A study of Mus musculus with 22 samples.

Results

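NF-kB pathway genes, 42 in all, were followed in 3 kinds of mouse CD4+ T cell. They were the rows of the count table whose symbols stand on a list of NF-kB subunits, inhibitors, kinases, adaptors and ubiquitin enzymes. All 42 were found among the 55011 genes of the table and all 42 were among the 15462 genes with enough counts to test. The rule goes by symbol and uses no measured value, but the list was drawn up with earlier results of these data known.

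NF-kB is a family of transcription factors that work as pairs of Rel-domain proteins. In resting cells IkB proteins hold these pairs in the cytoplasm. In the canonical route, antigen receptors, cytokine receptors and Toll-like receptors switch on the IKK kinase complex, which marks IkB for destruction. In the alternative route, NIK and IKK alpha convert the Nfkb2 product p100 into p52, which works with RelB. Among the genes that NF-kB turns on are its own brakes, the inhibitor IkB alpha (Nfkbia) and the ubiquitin editor A20 (Tnfaip3). In regulatory T cells (Treg), c-Rel, the product of Rel, takes part in switching on Foxp3 during thymic development.

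All cells came from lymph nodes of C57BL/6 scurfy recipients, which lack functional Foxp3, and the labels give the scurfy genotype for every library. The recipients were 10 days old when they received cyclophosphamide at 50 mg/kg. Cells went into the peritoneum on day 14. The mice were then given human IL-2, 1000 IU/g, each day for 5 days and weekly after that. In the FOXP3 group the injected cells were scurfy CD4+ T cells given human FOXP3, and in the LNGFR group scurfy CD4+ T cells given an empty vector. LNGFR is the truncated nerve growth factor receptor that reports the vector, and the promoter of the vector is not given in the sources used here. In the WT Treg group they were CD4+CD25+ CD45.1+ cells. On day 50, 1000 cells per library were sorted by LNGFR or CD45.1.

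Titles carry codes such as F1 or G2, and the 2 libraries of a code were summed, giving 5 codes for FOXP3, 3 for LNGFR and 3 for WT Treg. Whether codes are separate mice is not stated in the labels, so p-values reflect only how these codes vary, which may be technical. FOXP3 and LNGFR codes carry different letters, so the vector and whatever the letters stand for cannot be told apart. The letter G is shared by the 3 LNGFR codes and the WT Treg code G4, and numerals recur across groups, but what they mean is not stated. WT Treg differ from the other cells in donor, vector and sorting marker together. Levels are CPM, counts in each 1e6 of the library, scaled by TMM, an edgeR factor that evens out library composition.

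In 19 libraries the total was 2204510 to 5453380 counts. The other 3, both libraries of E2 and the second of G1, held 332570 to 641980 counts, of which 23.5% to 46.1% lay in the gene model Gm10800, against 1.72% to 3.53% elsewhere. Codes E2 (WT Treg), G1 (LNGFR) and N3 (FOXP3) stand apart from the rest of their groups, and results are also given without these 3 codes. That fit keeps F1, F2, F5 and N2 for FOXP3, G2 and G3 for LNGFR, and G4 and L1 for WT Treg. The codes were left out after their values were seen. Its SE, adjusted p-values and calls are therefore not comparable with those of the full fit. The mouse Foxp3 gene read 218, 313, 217, 232 and 162 CPM in FOXP3 codes F1, F2, F5, N2 and N3. It read 42.7, 72.7 and 143 CPM in LNGFR codes G1, G2 and G3, and 704, 1581 and 1630.1 CPM in WT Treg codes E2, G4 and L1. Human FOXP3 from the vector was not analysed here, and whether its reads add to the mouse Foxp3 count was not tested. Cd3e and Cd4, which define these T cells, were present in every code, at 307 to 801 and 187 to 724 CPM. The summed level of 11 B-cell markers, all 11 detected in every code, was 6816 CPM in N3 against 184 to 763 CPM in the other FOXP3 codes, 663 to 1724 CPM in LNGFR and 187 to 352 CPM in WT Treg. In such bulk samples, fewer cells of a type and less RNA per cell cannot be told apart.

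Some of the 42 genes carry short NF-kB-type motifs just upstream of their start, and these sequences are shown because the feedback genes are known direct targets. The motifs searched were GGGNNTTTC and GGGNNTTCC, on both strands and allowed to overlap, in the 250 bases before each start in RefSeq on GRCm38.p6. Of the 42 genes 33 had an entry, with 45 promoters. Nfkb1, Relb, Nfkbiz, Ikbkb, Tab1, Map3k8, Malt1, Tnfaip8 and Sharpin had none and were not searched. A match was found in 15 of the 45 (33.3%), against 8.14% of 32851 promoters of all genes. At least 2 separate stretches were matched in 4 of the 45 (8.89%), against 0.451% of all promoters. A match describes letters and is neither a binding site nor a cause. The promoters of 5 genes that are given in full below follow, 5′ to 3′ on the strand of the gene, with matches in capitals. Nfkb2 has 3 starts in the table and Tnfaip3 has 2, and the first of each is shown; the second window of Tnfaip3 holds 0 matches and each further one of Nfkb2 holds 1.
Nfkbia (chr12:55492648-55492897, minus strand): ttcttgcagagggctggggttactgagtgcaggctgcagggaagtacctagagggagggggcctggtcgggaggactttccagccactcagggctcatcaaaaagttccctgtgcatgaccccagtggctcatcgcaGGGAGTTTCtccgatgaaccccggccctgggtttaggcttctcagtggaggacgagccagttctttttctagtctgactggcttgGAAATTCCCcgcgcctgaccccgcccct
Tnfaip3 (chr10:19015411-19015660, minus strand): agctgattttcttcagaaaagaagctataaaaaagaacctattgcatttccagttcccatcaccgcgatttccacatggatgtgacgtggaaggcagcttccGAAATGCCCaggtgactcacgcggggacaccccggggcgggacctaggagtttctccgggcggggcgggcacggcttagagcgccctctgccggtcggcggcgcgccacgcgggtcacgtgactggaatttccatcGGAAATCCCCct
Rel (chr11:23770970-23771219, minus strand): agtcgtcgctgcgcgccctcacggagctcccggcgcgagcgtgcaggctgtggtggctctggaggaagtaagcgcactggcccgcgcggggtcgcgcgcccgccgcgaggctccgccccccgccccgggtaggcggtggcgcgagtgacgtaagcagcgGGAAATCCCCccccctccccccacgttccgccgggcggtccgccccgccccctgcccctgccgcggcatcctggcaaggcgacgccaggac
Rela (chr19:5637291-5637540, plus strand): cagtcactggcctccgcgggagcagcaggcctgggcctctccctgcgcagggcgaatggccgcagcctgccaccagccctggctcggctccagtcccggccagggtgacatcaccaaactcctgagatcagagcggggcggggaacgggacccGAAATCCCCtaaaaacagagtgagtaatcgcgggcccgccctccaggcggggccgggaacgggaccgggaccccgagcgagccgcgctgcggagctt
Nfkb2 (chr19:46304487-46304736, plus strand): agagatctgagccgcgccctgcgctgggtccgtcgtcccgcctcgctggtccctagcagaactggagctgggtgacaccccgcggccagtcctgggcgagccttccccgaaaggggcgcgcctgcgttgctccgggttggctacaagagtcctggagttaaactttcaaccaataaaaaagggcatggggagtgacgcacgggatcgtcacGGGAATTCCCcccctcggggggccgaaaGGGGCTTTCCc
Nfkbia, Tnfaip3 and Nfkb2 each hold 2 separate stretches in these windows, while Rel and Rela hold 1.

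**Figure D1:**
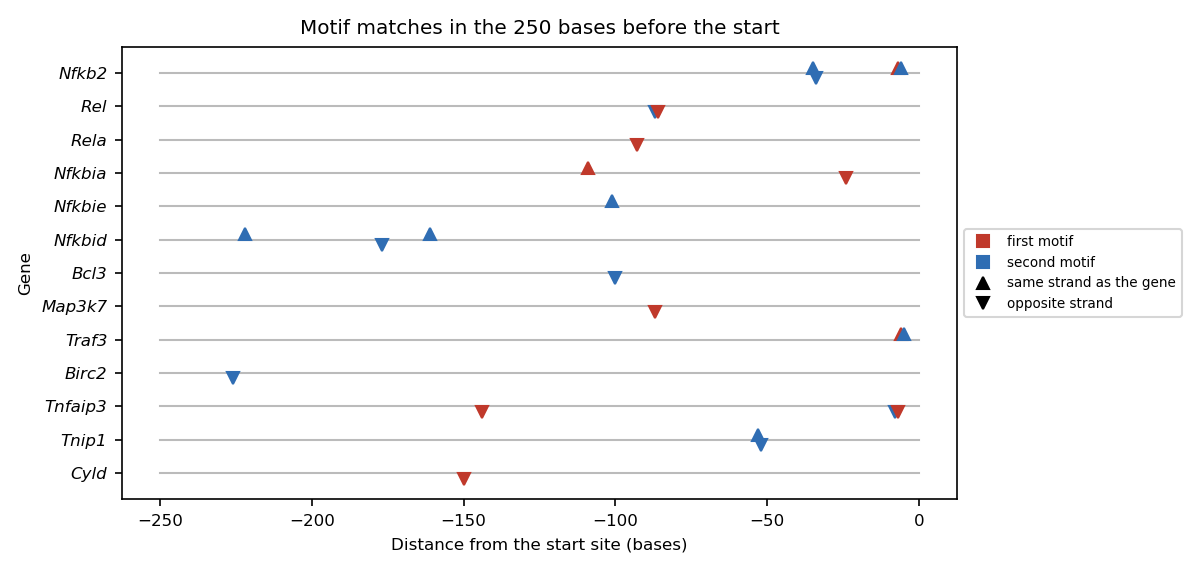
Position of each match to the 2 motifs (triangles, colored by motif, pointing up on the strand of the gene and down on the other) in the 250 bases before the start, for the 13 genes with a match; for Nfkb2 the first start is drawn. Matches of Nfkb2, Traf3, Tnfaip3 and Nfkbia lie nearest to the start, while Nfkbid has 3 matches farther upstream. Genes without a promoter entry, Nfkb1 and Relb among them, were not searched.

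Across the 42 genes, 1 gene passed the test in 1 of the 3 comparisons. Nfkb1 was lower in WT Treg than in LNGFR cells, which is 1 of 42 genes against 0.673% of all genes tested called lower (0 of 42 against 0.627% called higher). Between FOXP3 and LNGFR cells 0 of the 42 were called, against 0.168% of all genes called higher and 0.375% lower. Between FOXP3 and WT Treg cells 0 were called, against 0.136% higher and 0.123% lower. An unadjusted p under 0.05 was reached by 3, 3 and 4 of the 42 (7.14%, 7.14% and 9.52%) in the order FOXP3 against LNGFR, WT Treg against LNGFR and FOXP3 against WT Treg, which is below the 10.3%, 14.8% and 16.5% of all genes tested. DESeq2 also called 0 of the 42 between FOXP3 and LNGFR, against 1.14% of all genes higher and 0.977% lower, as did limma-voom, against 3.38% and 3.40%. Between WT Treg and LNGFR each called 1 of the 42 (2.38%) higher and 1 lower, where DESeq2 called 3.14% and 2.01% of all genes and limma-voom 2.88% and 2.73%. Between FOXP3 and WT Treg, DESeq2 called 1 higher (1.27% of all genes) and 1 lower (12.7%). There limma-voom called 1 higher (2.28% of all genes) and 4, or 9.52% of the 42, lower (4.61%). DESeq2 was run without the low-count filter. Its shares are over 22283 genes for FOXP3 against WT Treg and 16880 for each other comparison. They are therefore not like those of edgeR and limma-voom over 15462 genes. The 3 comparisons share codes and are not independent of one another.

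Nfkb1 (chromosome 3, 135584655 to 135691547, GRCm38) encodes p105, the precursor of the p50 subunit and itself an IkB-like inhibitor. It read 478, 443, 451, 554 and 365 CPM in the FOXP3 codes and 344, 534 and 632 CPM in the LNGFR codes. In the WT Treg codes it read 146, 168 and 191 CPM. Every WT Treg code lay below every code of the other groups, while the FOXP3 and LNGFR codes overlapped. The means were 458 ± 68.3 (SD, n = 5), 503 ± 146 (SD, n = 3) and 168 ± 22.5 CPM (SD, n = 3).

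Against LNGFR, Nfkb1 in WT Treg was 2.98-fold lower, a log2 fold change of -1.58 ± 0.33 (SE, adjusted p = 0.031). The log2 fold change of FOXP3 against WT Treg was 1.44 ± 0.30 (SE, adjusted p = 0.0714), which missed the threshold although the codes did not overlap. FOXP3 against LNGFR gave -0.14 ± 0.28 (SE, adjusted p = 0.88). Leaving out E2, G1 and N3 turned the first into -1.70 ± 0.15 (SE, adjusted p = 3.06e-05) and the second 1.41 ± 0.13 (SE, adjusted p = 0.00011), both past the threshold. The smaller SE follow the removal of codes that stood apart, so these adjusted p-values do not compare with those above. In the 20 alternative settings the log2 fold change of WT Treg against LNGFR ran from -1.80 to -1.37. The call was lost without F1, F2, F5, G2, G3, G4 or L1 (adjusted p = 0.0594 to 0.313), with no filter on low counts (adjusted p = 0.146) and with only the 2 groups in the fit (adjusted p = 0.202). Its difference between FOXP3 and WT Treg passed in 8 of the 20, with a log2 fold change of 1.27 to 1.69 over all 20.

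The 2 libraries of a code differed for Nfkb1 by 1.02- to 1.23-fold over the 9 codes without weak libraries. The summed B-cell marker level was, like Nfkb1, lower in WT Treg (187 to 352 CPM) than in LNGFR (663 to 1724 CPM). Among the FOXP3 codes N2, with the lowest sum of 184 CPM, had the highest Nfkb1, and N3, with 6816 CPM, the lowest. The part of B cells in the difference was not tested. Among codes with the letter G, Nfkb1 read 168 CPM in the WT Treg code G4 and 344 to 632 CPM in the LNGFR codes. No other annotated gene shared exon bases with Nfkb1.

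**Figure D2:**
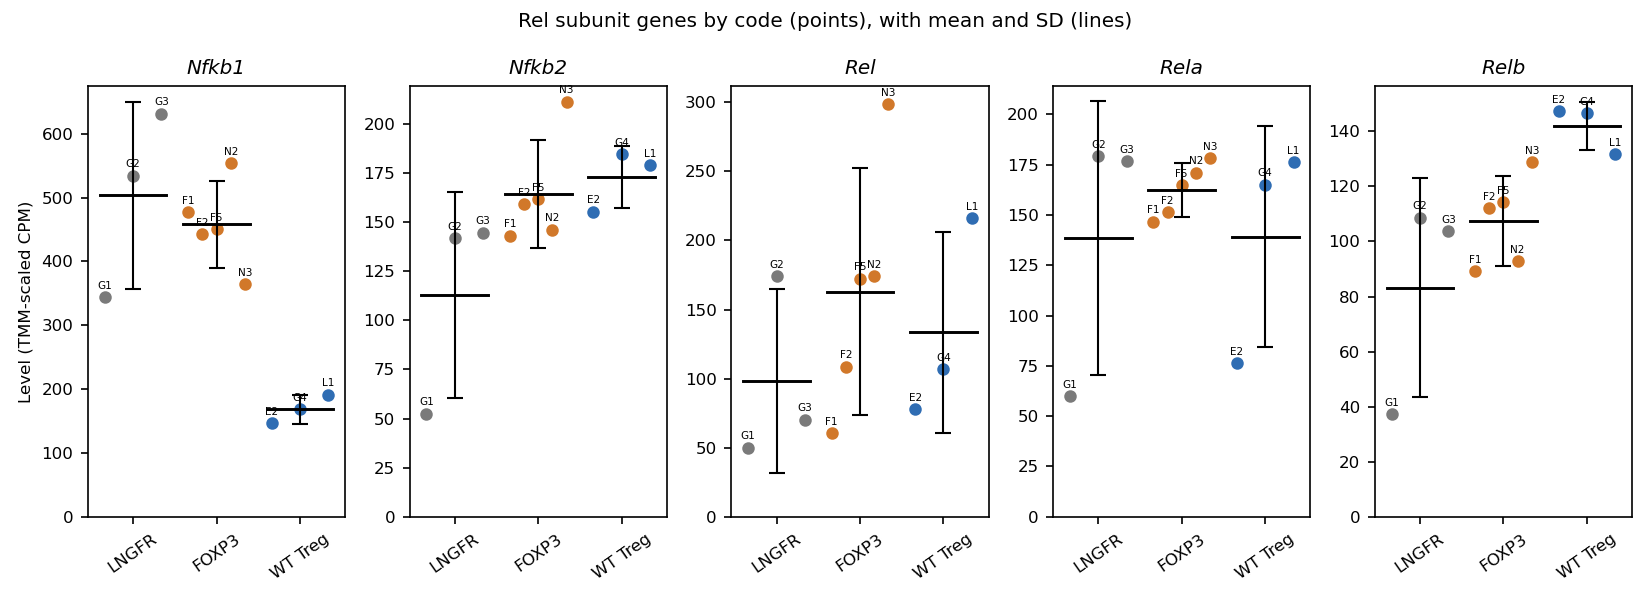
Level of the 5 Rel subunit genes in TMM-scaled CPM in each code (points, named by code), with the mean and SD of each group (lines), on axes that start at 0. The 3 WT Treg codes of Nfkb1 sit between 146 and 191 CPM, below all 8 other codes, and G1 is the lowest LNGFR code in all 5 panels.

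Among the other Rel subunit genes no difference passed the test. Relb, the partner of p52 in the alternative route, read 89.1, 112, 114, 92.9 and 129 CPM in the FOXP3 codes, 37.3, 109 and 104 CPM in LNGFR and 147, 147 and 132 CPM in WT Treg. WT Treg codes lay above all others. The log2 fold change was 0.76 ± 0.36 (SE, adjusted p = 0.345) for WT Treg against LNGFR, -0.40 ± 0.32 (SE, adjusted p = 0.577) for FOXP3 against WT Treg and 0.36 ± 0.32 (SE, adjusted p = 0.731) for FOXP3 against LNGFR. Nfkb2, which encodes p100, read 143, 159, 162, 146 and 211 CPM in FOXP3, 52.5, 142 and 145 CPM in LNGFR and 155, 185 and 179 CPM in WT Treg. WT Treg codes lay above LNGFR codes and among the FOXP3 codes, with log2 fold changes of 0.61 ± 0.36 (SE, adjusted p = 0.438) and -0.08 ± 0.32 (SE, adjusted p = 0.931). FOXP3 against LNGFR gave 0.54 ± 0.33 (SE, adjusted p = 0.628) for Nfkb2. For Relb and Nfkb2 the WT Treg and LNGFR codes overlapped once the TMM factor was left out, since that factor raised E2. The WT Treg and FOXP3 codes of Relb then overlapped too, with E2 at 97.0 CPM within the FOXP3 range of 91.0 to 136 CPM. Nfkb2 also shares exon bases with genes on the opposite strand, and without a known strand setting their reads cannot be told apart.

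Rela, the p65 subunit of the canonical pair, was close to level: 147, 151, 165, 171 and 178 CPM in FOXP3, 59.9, 179 and 177 CPM in LNGFR and 76.3, 165 and 176 CPM in WT Treg. G1 and E2 were the low codes, and the other 9 lay within 147 to 179 CPM. The log2 fold changes of Rela were 0.23 ± 0.37 (SE, adjusted p = 0.848) for FOXP3 against LNGFR, 0.02 ± 0.41 (SE, adjusted p = 0.993) for WT Treg against LNGFR and 0.21 ± 0.37 (SE, adjusted p = 0.816) for FOXP3 against WT Treg. All 3 turned below 0 without E2, G1 and N3, at -0.17, -0.06 and -0.12. Rel read 60.7, 109, 172, 174 and 298 CPM in FOXP3, 50.1, 174 and 70.2 CPM in LNGFR and 77.7, 107 and 216 CPM in WT Treg. Codes overlapped in every comparison, and Rel varied 4.92-fold among the FOXP3 codes. Its log2 fold changes were 0.73 ± 0.54 (SE, adjusted p = 0.684), 0.45 ± 0.59 (SE, adjusted p = 0.761) and 0.27 ± 0.53 (SE, adjusted p = 0.833) in the same order.

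None of the IkB genes passed the test. Nfkbia, the canonical inhibitor that NF-kB itself induces, read 990.1, 657, 1375, 1499.9 and 1401 CPM in FOXP3, 4779, 2251 and 1122 CPM in LNGFR and 430.4, 899 and 1711 CPM in WT Treg. G1 stood far above all other codes, and the rest of LNGFR overlapped both groups. The log2 fold change was -1.20 ± 0.50 (SE, adjusted p = 0.422) for FOXP3 against LNGFR, -1.42 ± 0.58 (SE, adjusted p = 0.283) for WT Treg against LNGFR and 0.22 ± 0.51 (SE, adjusted p = 0.862) for FOXP3 against WT Treg. The first 2 shrank to -0.58 ± 0.46 (SE, adjusted p = 0.519) and -0.37 ± 0.54 (SE, adjusted p = 0.781) without E2, G1 and N3. The 2 libraries of G1 differed, at 5054 and 529 CPM before TMM scaling, whereas those of the 9 codes without weak libraries differed by at most 1.25-fold. Per kb of exon Nfkbia had the highest level of the 42 in each group, 736 CPM per kb in FOXP3, 1688 in LNGFR and 629 in WT Treg.

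Nfkbid encodes the nuclear protein IkBNS, which acts with c-Rel on Foxp3 in developing Treg. It read 76.9, 86.4, 119, 125 and 118 CPM in FOXP3 and 137, 171 and 246 CPM in WT Treg, and every FOXP3 code was lower. For Nfkbid, FOXP3 against WT Treg gave -0.82 ± 0.38 (SE, adjusted p = 0.298), and -1.04 ± 0.20 (SE, adjusted p = 0.0118), a call, without E2, G1 and N3. In LNGFR, Nfkbid read 38.7, 143 and 128 CPM, which overlapped both groups. With no TMM factor E2 fell among the FOXP3 codes.

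Nfkbiz encodes IkB zeta, a nuclear IkB that is also quickly induced. It ran from 136 to 253 CPM in FOXP3, 123 to 370.04 in LNGFR and 183 to 249.98 in WT Treg, overlapping throughout. Nfkbie (IkB epsilon), Nfkbib (IkB beta) and Bcl3, a nuclear IkB that binds p50 and p52, also overlapped in all 3 comparisons. Nfkbie spanned 24.5 to 75.2 CPM over the 11 codes, Nfkbib 44.8 to 150.3 and Bcl3 13.6 to 23.9.

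Among the negative regulators, Tnip1 and Tnfaip3 behaved differently. Tnip1 encodes ABIN1, a ubiquitin-binding partner of A20. It read 134, 129 and 124 CPM in WT Treg, 93.2, 84.1, 82.7, 96.6 and 83.8 CPM in FOXP3 and 43.4, 79.4 and 73.1 CPM in LNGFR. The 3 groups formed 3 ranges that did not overlap, with WT Treg highest and LNGFR lowest. The log2 fold change was 0.98 ± 0.28 (SE, adjusted p = 0.136) for WT Treg against LNGFR, -0.55 ± 0.24 (SE, adjusted p = 0.274) for FOXP3 against WT Treg and 0.43 ± 0.25 (SE, adjusted p = 0.606) for FOXP3 against LNGFR. None passed the threshold. Without E2, G1 and N3, WT Treg against LNGFR gave 0.73 ± 0.14 (SE, adjusted p = 0.00668) and FOXP3 against WT Treg -0.51 ± 0.12 (SE, adjusted p = 0.0204), both calls. DESeq2 and limma-voom called the same 2 differences with all codes in. The ranges depend on scaling: with no TMM factor E2 read 88.3 CPM, within the FOXP3 range, and only WT Treg and LNGFR stayed apart.

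Tnfaip3, the gene for A20, read 145, 180.1, 613, 966 and 717 CPM in FOXP3, 161, 1476 and 429 CPM in LNGFR and 142, 297 and 973 CPM in WT Treg. Each group held codes near the bottom and near the top of the whole range, a 6.69-fold span in FOXP3, 9.19-fold in LNGFR and 6.84-fold in WT Treg. The log2 fold changes were -0.39 ± 0.78 (SE, adjusted p = 0.875), -0.54 ± 0.88 (SE, adjusted p = 0.824) and 0.15 ± 0.79 (SE, adjusted p = 0.948) for FOXP3 against LNGFR, WT Treg against LNGFR and FOXP3 against WT Treg. With a biological coefficient of variation of 0.718, Tnfaip3 was the most variable of the 42, and these comparisons resolve little for it. The direction against LNGFR turned without G2 (0.91 for FOXP3 and 0.70 for WT Treg). Over the 9 codes without weak libraries, the paired libraries of Tnfaip3 differed by a median of 1.07-fold and at most 2.19-fold, in G2. Tnip2, another A20 partner (19.2 to 66.0 CPM over all codes), and Cyld, the deubiquitinase mutated in cylindromatosis (33.3 to 127 CPM), overlapped in every comparison.

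Among the FOXP3 codes the low ones were largely the same for several induced genes, while the order in the other groups varied by gene. F1 and F2 were the lowest FOXP3 codes for 9 of the 42, against 10.5% of all genes tested: Rel, Rela, Nfkbia, Nfkbid, Nfkbiz, Tab1, Traf6, Otulin and Tnfaip3. This pattern was chosen after the values were seen, and the meaning of the letters F and N is not stated. Junb, an AP-1 gene of early activation, read 944, 785, 1974, 2083 and 2087 CPM in the FOXP3 codes, again lowest in F1 and F2. In LNGFR Junb read 823, 3827 and 1883 CPM and in WT Treg 857, 1002 and 2283 CPM, highest in G2 and L1 as Tnfaip3 was. Fos and Gadd45b, both early response genes, were also lowest in F1 and F2 among the FOXP3 codes, at 362 and 194 CPM against 673.6 to 756 CPM for Fos and at 74.4 and 60.0 CPM against 140.5 to 213 CPM for Gadd45b. In LNGFR codes G1, G2 and G3, Fos read 704.8, 1366 and 512 CPM and Gadd45b 380.3, 229 and 95.4 CPM. In WT Treg codes E2, G4 and L1, Fos read 569.9, 236 and 892 CPM and Gadd45b 42.1, 76.7 and 251 CPM. Fos was thus highest in G2 and L1, as Tnfaip3 was. Gadd45b was highest in L1 too, but among LNGFR codes in G1, as Nfkbia was. What set these differences between codes, including cell handling, was not tested. The 13 genes with a promoter match had a median coefficient of variation of 0.357 (0.221 to 0.718), against 0.335 (0.214 to 0.452) for the 20 with a promoter but no match.

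**Figure D3:**
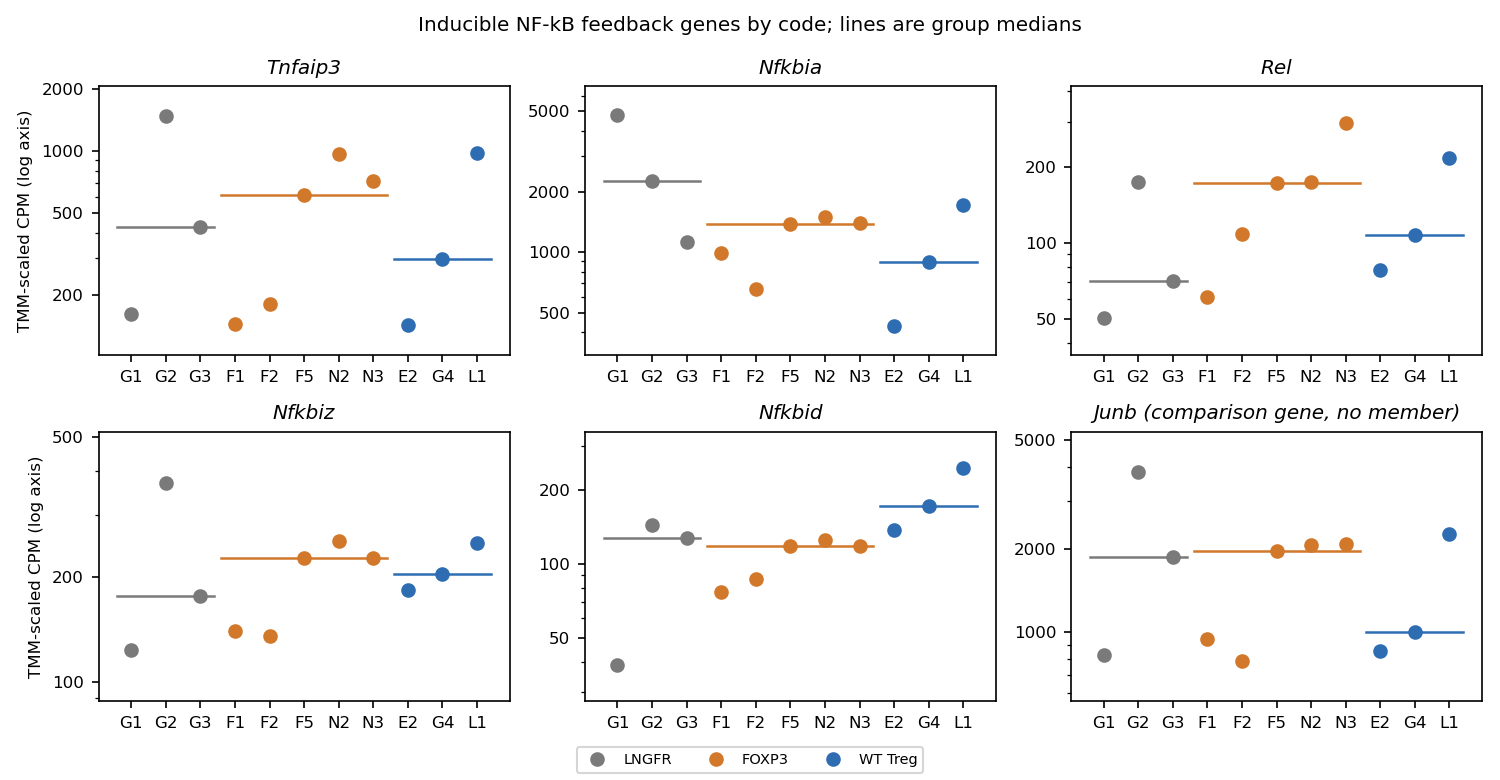
TMM-scaled CPM of 5 inducible NF-kB genes and of Junb, which is not one of the 42, in each of the 11 codes (points, log axis), with group medians (lines). F1 and F2 are the lowest FOXP3 codes in every panel, and for Tnfaip3, Nfkbiz and Junb the highest LNGFR code is G2 and the highest WT Treg code L1.

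The kinases of the pathway did not pass the test in any comparison. Of the IKK genes, Chuk (IKK alpha) spanned 11.8 to 36.4 CPM over the 11 codes, Ikbkb (IKK beta) 87.1 to 355 CPM and Ikbkg, the regulatory subunit NEMO, 9.41 to 81.6 CPM. The related kinases Ikbke and Tbk1, known from interferon induction, spanned 55.5 to 308 and 15.8 to 91.0 CPM. For all 5 the groups overlapped in every comparison. G1 was the lowest of the 11 codes for each of them.

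Upstream of IKK, Map3k7, the gene for the kinase TAK1, read 24.1, 28.4, 32.2, 26.6 and 32.01 CPM in FOXP3, 18.5, 17.1 and 23.3 CPM in LNGFR and 23.7, 22.96 and 20.5 CPM in WT Treg. FOXP3 codes lay above both other groups, narrowly, and with no TMM factor they overlapped the LNGFR codes. The log2 fold change was 0.54 ± 0.22 (SE, adjusted p = 0.392) against LNGFR and 0.37 ± 0.22 (SE, adjusted p = 0.452) against WT Treg. Its partners Tab1 and Tab2 spanned 10.8 to 54.9 and 60.2 to 91.6 CPM, and overlapped in every comparison. Ripk1, a kinase of the TNF receptor complex, ran from 22.4 to 26.96 CPM in FOXP3 and 27.3 to 39.5 CPM in WT Treg, just without overlap, and 15.8 to 29.1 CPM in LNGFR. With no TMM factor the FOXP3 and WT Treg codes of Ripk1 overlapped. Map3k8, the kinase Tpl2 that p105 holds inactive, spanned 25.01 to 62.3 CPM with overlap throughout.

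Map3k14 encodes NIK, which starts the alternative route. It read 13.7, 18.2, 21.5, 17.1 and 32.1 CPM in FOXP3, 14.8, 28.6 and 30.8 CPM in LNGFR and 35.5, 16.8 and 20.4 CPM in WT Treg. All groups overlapped, and FOXP3 against LNGFR gave -0.28 ± 0.34 (SE, adjusted p = 0.798). Without E2, G1 and N3 it gave -0.76 ± 0.20 (SE, adjusted p = 0.033), a call. N3 and G1, which are then left out, were the highest FOXP3 and the lowest LNGFR code.

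Bcl10 and Malt1 belong to the CBM complex, which carries the T-cell receptor signal to IKK. Bcl10 read 120.5, 112, 117, 114 and 116 CPM in FOXP3, 32.6, 99.1 and 94.8 CPM in LNGFR and 48.7, 107 and 108 CPM in WT Treg. The FOXP3 codes were tight and lay above both other groups, with a log2 fold change of 0.61 ± 0.36 (SE, adjusted p = 0.619) against LNGFR. Against WT Treg it was 0.38 ± 0.36 (SE, adjusted p = 0.642). Without E2, G1 and N3 the values were 0.25 ± 0.11 (SE, adjusted p = 0.178) and 0.10 ± 0.11 (SE, adjusted p = 0.648). The gap to WT Treg was narrow. With no TMM factor the lowest FOXP3 code read 114.32 CPM and the highest WT Treg code 114.27 CPM. Malt1 read 105, 84.8, 92.3, 87.1 and 149 CPM, 81.4, 145 and 123 CPM and 117, 137 and 157 CPM in the same order. The FOXP3 codes overlapped both groups, and N3 was the highest of them. For Malt1 the fold change was -0.17 ± 0.28 (SE, adjusted p = 0.851) against LNGFR and -0.41 ± 0.28 (SE, adjusted p = 0.516) against WT Treg, and without E2, G1 and N3 -0.54 ± 0.13 (SE, adjusted p = 0.0187) and -0.68 ± 0.13 (SE, adjusted p = 0.00793), both calls. In N3, the code with the highest Malt1 of FOXP3, the B-cell marker sum was also the highest, and the part of B cells in this value was not tested.

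Of the TRAF adaptors, which link receptors to kinases and ligases, Traf4 was the one whose codes separated. It read 12.3, 20.02, 14.9, 14.6 and 23.7 CPM in FOXP3 and 25.01, 27.98 and 30.6 CPM in WT Treg, against 8.74, 16.3 and 28.3 CPM in LNGFR. For Traf4, FOXP3 against WT Treg gave -0.72 ± 0.34 (SE, adjusted p = 0.314), and without E2, G1 and N3 -0.93 ± 0.24 (SE, adjusted p = 0.0364), a call. Traf1, itself an NF-kB target, was among the steadiest genes, at 287 to 332 CPM in FOXP3, 204 to 335 in LNGFR and 308 to 328 in WT Treg. Traf2 and Traf3, which keep NIK low, spanned 24.5 to 160 and 31.9 to 93.6 CPM, Traf5 32.6 to 118 CPM and Traf6, the ligase of the interleukin-1 and Toll-like receptor route, 23.9 to 83.5 CPM. Traf5 had an unadjusted p under 0.05 for FOXP3 against LNGFR, with a log2 fold change of 0.74 ± 0.33 (SE, adjusted p = 0.461). WT Treg against LNGFR gave a like value of 0.75 ± 0.36 (SE, adjusted p = 0.351). Without E2, G1 and N3 these were 0.41 ± 0.19 (SE, adjusted p = 0.208) and 0.71 ± 0.21 (SE, adjusted p = 0.0678).

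Birc2 and Birc3 encode the ligases cIAP1 and cIAP2, which join the TRAF adaptors. Birc3 read 176, 149, 168, 158 and 289.7 CPM in FOXP3, 54.5, 226 and 149 CPM in LNGFR and 89.5, 142 and 127 CPM in WT Treg. FOXP3 codes lay just above WT Treg codes, with a log2 fold change of 0.65 ± 0.41 (SE, adjusted p = 0.472), which was 0.27 ± 0.16 (SE, adjusted p = 0.346) without E2, G1 and N3. Birc2 spanned 12.8 to 125 CPM with overlap throughout. Cflar, the caspase-8 inhibitor c-FLIP, read 147, 166, 139.9, 131 and 131 CPM in FOXP3, 73.97, 104 and 128 CPM in LNGFR and 115, 163 and 162 CPM in WT Treg. FOXP3 codes lay above LNGFR codes, with a log2 fold change of 0.48 ± 0.26 (SE, adjusted p = 0.581), but overlapped them with no TMM factor. Tnfaip8, which was named for its induction by TNF, spanned 88.2 to 242 CPM and overlapped.

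The linear ubiquitin genes Rnf31, Rbck1 and Sharpin encode the LUBAC ligase, and Otulin encodes the enzyme that removes its chains. Otulin was a low gene, at 14.4, 14.8, 17.3, 15.3 and 35.6 CPM in FOXP3, 19.5, 20.6 and 15.3 CPM in LNGFR and 11.8, 13.4 and 9.06 CPM in WT Treg. The WT Treg codes were the lowest of all. WT Treg against LNGFR gave -0.70 ± 0.38 (SE, adjusted p = 0.404) and FOXP3 against WT Treg 0.78 ± 0.35 (SE, adjusted p = 0.288). Without E2, G1 and N3 Otulin gave -0.68 ± 0.28 (SE, adjusted p = 0.183) and 0.46 ± 0.24 (SE, adjusted p = 0.305). Its smallest count in a code was 9. Sharpin read 107, 108, 97.6, 119 and 134 CPM in FOXP3, 77.3, 119 and 108 CPM in LNGFR and 76.3, 94.8 and 94.3 CPM in WT Treg, with a log2 fold change of 0.35 ± 0.24 (SE, adjusted p = 0.522) for FOXP3 against WT Treg. Rnf31 and Rbck1 overlapped in all comparisons, at 34.6 to 137 and 115 to 397 CPM.

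Codes did not overlap for 4 of the 42 higher in FOXP3 than in LNGFR (4.35% of all genes tested did so) and for 0 lower (4.67%). For WT Treg against LNGFR the counts were 3 higher (7.80%) and 2 lower (8.82%), and for FOXP3 against WT Treg 6 higher (6.12%) and 5 lower (6.25%). As shares of the 42 these are 9.52% and 0%, 7.14% and 4.76%, and 14.3% and 11.9%. With no TMM factor, 1 of the 4 (Bcl10), 3 of the 5 (Nfkb1, Otulin and Tnip1) and 5 of the 11 remained apart. The 5 were Nfkb1, Map3k7, Bcl10, Birc3 and Otulin. Without E2, G1 and N3, FOXP3 against LNGFR called 0 higher (6.61% of 14688 genes) and 2 lower (4.04%), Malt1 and Map3k14. WT Treg against LNGFR called Tnip1 higher (4.19%) and Nfkb1 lower (3.47%). FOXP3 against WT Treg called Nfkb1 higher (3.85%), and 4 lower (3.57%), Malt1, Nfkbid, Tnip1 and Traf4. These shares lie at or within a few genes of the background.

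**Figure D4:**
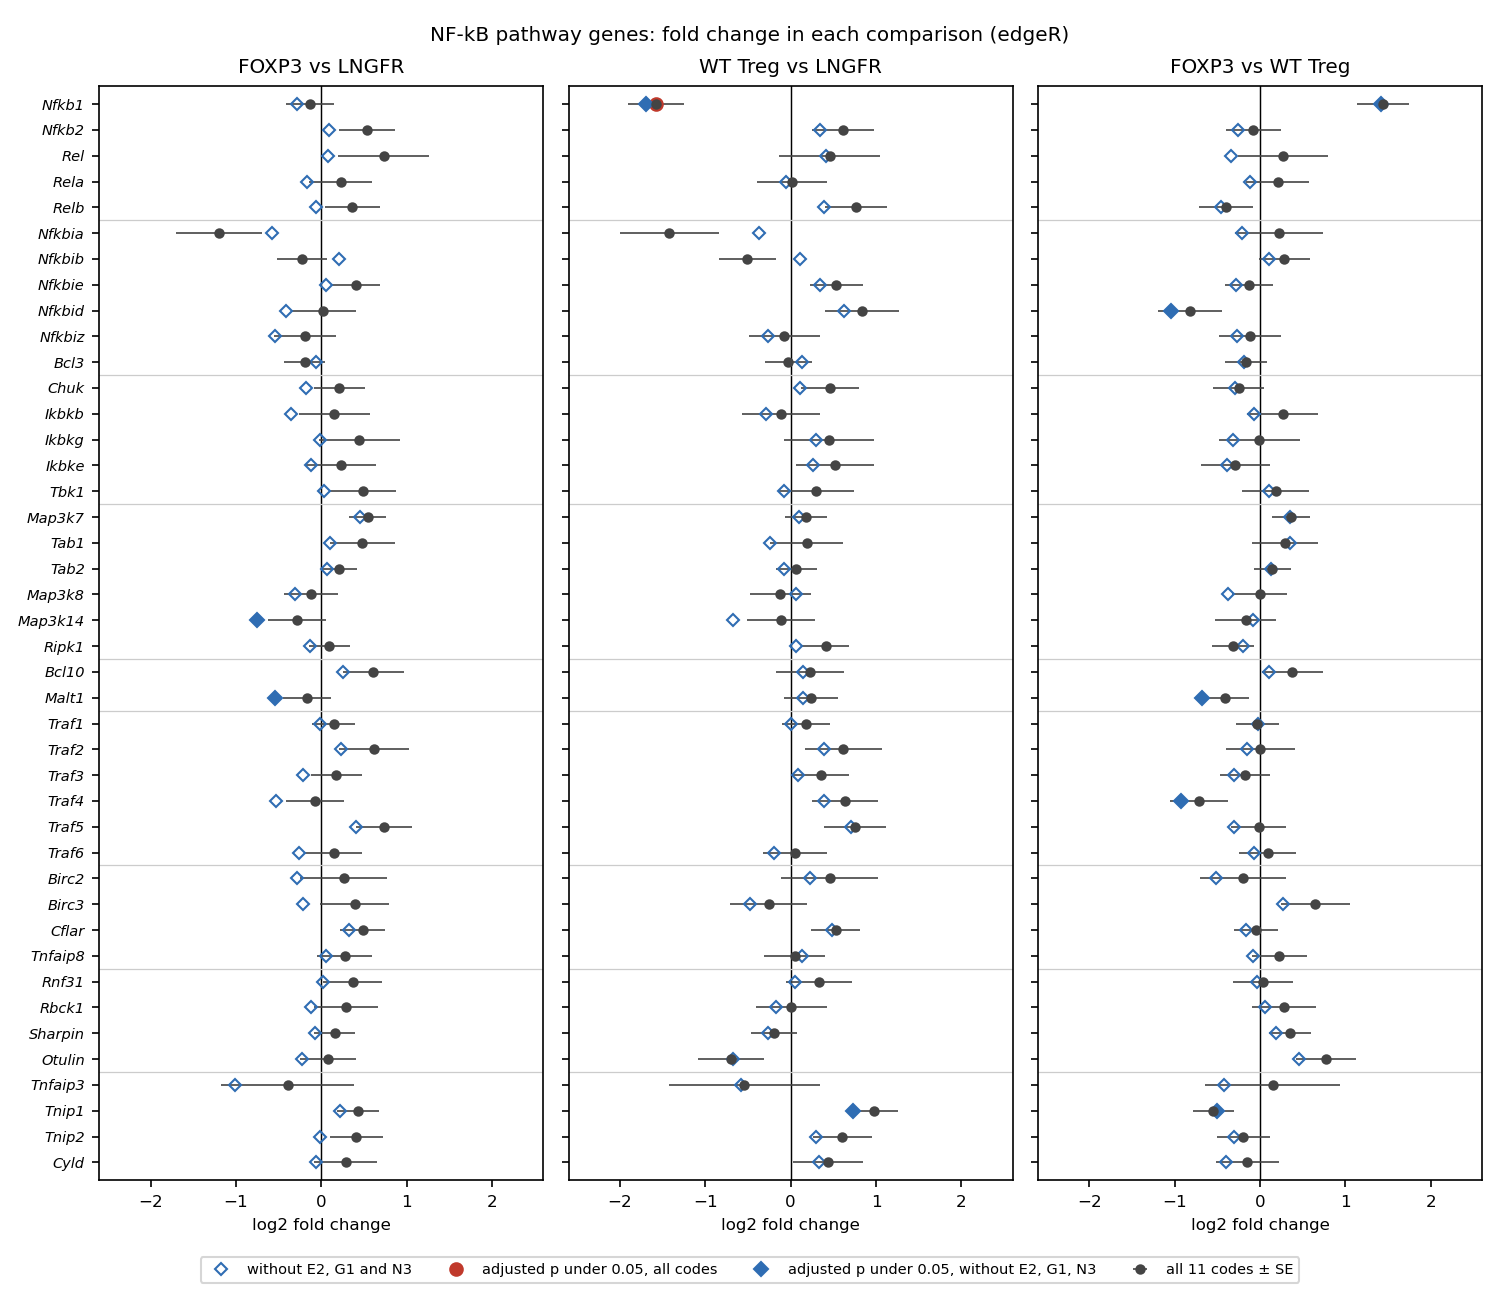
Log2 fold change of the 42 genes, ordered by role, in the 3 comparisons, with all 11 codes (dark points with SE) and without E2, G1 and N3 (diamonds); filled red points and filled diamonds pass an adjusted p of 0.05. The red point is Nfkb1 in WT Treg against LNGFR at -1.58, and in FOXP3 against LNGFR most diamonds lie to the left of the points.

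In the LNGFR code G1 nearly the whole set was low, which touches every comparison with LNGFR. G1 was the lowest LNGFR code for 36 of the 42, against 44.5% of all genes tested. The exceptions were Nfkbia, Nfkbib, Bcl3, Map3k7, Map3k8 and Otulin. The median of the 42 in G1 was 1.18 below their median over codes on the scale log2(CPM + 1), and that of all genes was 0. The deep first library of G1 alone was below all 4 libraries of G2 and G3 for 37 of the 42 (88.1%), against 47.8% of all genes. The summed level of 8 CD4 T-cell markers was highest in G1, at 6536 CPM against 5346 and 5104 CPM in G2 and G3, and Cd3e was near level, at 622 against 645 and 662 CPM. Of single genes looked at after values were seen, Cd4 was lower in G1, at 255 against 689 and 724 CPM, and so was Ptprc, the gene for CD45, at 793 against 1335 and 1332 CPM. The B-cell marker sum of G1 was 1724 CPM against 663 and 699 CPM in G2 and G3. Their part in the low level was not tested.

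With G1 in, the median log2 fold change of the 42 was 0.23 for FOXP3 against LNGFR, with 32 of 42 above 0, beside a median of -0.02 over all genes tested. For WT Treg against LNGFR it was 0.24, with 30 of 42 above 0, beside 0.08. Without G1 these became -0.02 with 18 of 42 above 0, and -0.03 with 19 of 42. FOXP3 against WT Treg had a median of -0.0049 with 20 of 42 above 0, and of -0.010 with 20 of 42 when G1 was left out of the shared fit. In that fit 1 of the 42 was called higher, beside 67 of 16196 genes.

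E2 was the lowest WT Treg code for 29 of the 42, against 50.6% of all genes, and N3 the highest FOXP3 code for 19, against 30.0%. Within groups, the median ratio of the highest to the lowest code was 1.48 in FOXP3, 2.95 in LNGFR and 1.44 in WT Treg. For genes within the same range of levels it was 1.51, 2.11 and 2.02.

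**Figure D5:**
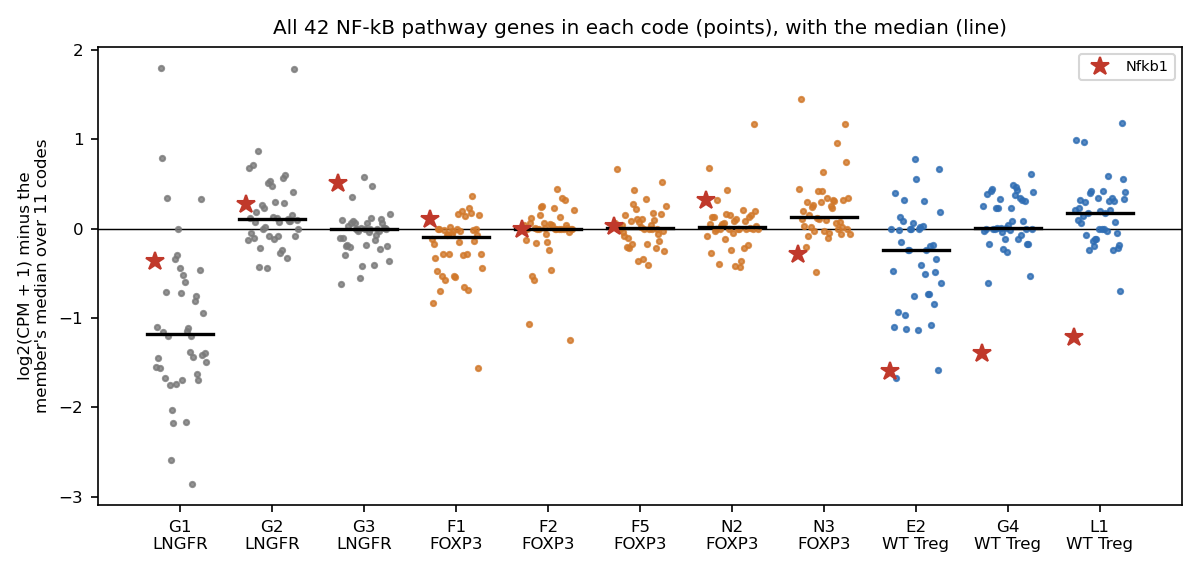
Each of the 42 genes in each code (points), as log2(CPM + 1) minus the median of that gene over the 11 codes, with the median of the 42 (line) and Nfkb1 as a star. The median is near 0 in most codes and at -1.18 in G1, and the star of Nfkb1 lies below -1 in all 3 WT Treg codes and in no other code.

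Genes of the pathway outside the 42 were counted from 3 lists, all chosen with earlier results of these data known. Of 24 receptors and input genes 23 were tested. Tnfrsf9, the costimulatory receptor 4-1BB, rose in FOXP3 and in WT Treg against LNGFR, the only call of that list in each. It read 232, 161, 195, 136 and 87.3 CPM in FOXP3, 69.8, 346 and 321 CPM in WT Treg and 9.75, 18.2 and 23.1 CPM in LNGFR. Over all genes tested 0.168% were called higher in FOXP3 and 0.627% in WT Treg against LNGFR. FOXP3 against WT Treg called 0 of the 23. Of 25 other signalling and ubiquitin genes, all tested, 0 were called in any comparison.

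Of 30 NF-kB target genes 27 were tested. Because this list was chosen with earlier results known, its counts beside those of all genes are no independent test of NF-kB targets. Against LNGFR, 4 of the 27 fell in FOXP3 and 4 in WT Treg, beside 0.375% and 0.673% of all genes tested. In both comparisons 0 rose, beside 0.168% and 0.627%. FOXP3 against WT Treg called 1 higher and 0 lower, beside 0.136% and 0.123%. Ier3, an early response gene, read 14.3, 7.17, 10.03, 6.54 and 6.75 CPM in FOXP3, 0.00, 4.37 and 5.99 CPM in WT Treg and 149, 39.4 and 79.1 CPM in LNGFR, and fell in both comparisons with LNGFR. The chemokine gene Cxcl3 fell in FOXP3, from 21.5, 4.96 and 10.7 CPM in LNGFR codes G1, G2 and G3 to at most 0.830 CPM. In WT Treg, where it was not called, Cxcl3 was also near the floor, at 1.32, 0.323 and 0.400 CPM. Tnfsf8, the CD30 ligand, fell in both and was also the call of FOXP3 against WT Treg, at 52.2 to 89.0 CPM in FOXP3, 16.2 to 23.7 CPM in WT Treg and 269.7 to 342 CPM in LNGFR. Cd40lg, the CD40 ligand of helper T cells, was the other gene that fell in both, at 25.04 to 39.4 CPM in FOXP3, 10.5 to 17.1 CPM in WT Treg and 57.2 to 94.5 CPM in LNGFR. Bcl2a1d, of the family of the survival gene Bcl2a1, fell in WT Treg. The medians of the target list were -0.09, -0.02 and 0.04 in the 3 comparisons, beside -0.02, 0.08 and 0.01 over all genes. Without E2, G1 and N3 more genes were called on each list, and more over all genes. The shares of all genes were then 6.61% higher and 4.04% lower for FOXP3 against LNGFR. They were 4.19% and 3.47% for WT Treg against LNGFR, and 3.85% and 3.57% for FOXP3 against WT Treg. In the order FOXP3 against LNGFR, WT Treg against LNGFR and FOXP3 against WT Treg, the target list then had 3 higher and 4 lower, 6 and 5, and 4 and 5. Receptors and inputs had 4 higher and 1 lower, 5 and 1, and 2 and 4. Other signalling genes had 2 higher and 1 lower, 1 and 0, and 0 and 3.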

How the data were processed

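Smart-seq libraries of 1000 sorted cells (18 PCR cycles, pairs of 38 bp reads, no molecular identifiers) were given as a deposited table that lists raw counts of reads for each gene symbol in each library. The build was mm10 (GRCm38) and the tools were STAR 2.7.3a and featureCounts with Subread 2.0.0, per the submitters' processing notes. The annotation is not given in the sources used here, nor are the strand setting and multi-mapping. Of the 42, those that share exon bases with another gene (Nfkb2, Nfkbib, Bcl3, Ikbkg, Ikbke, Map3k14, Ripk1, Traf5, Tnfaip8 and Rnf31 in GENCODE M21) can therefore hold reads of that gene.

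The 2 libraries of a code were summed. All 3 groups entered 1 fit of edgeR's quasi-likelihood test (edgeR 4.0.16, R 4.3.3, TMM, filterByExpr, robust), with Benjamini-Hochberg adjustment over the 15462 genes tested and a threshold of 0.05. CPM are scaled by TMM, and means carry the SD over codes. Each SE was taken as the size of the log2 fold change divided by the square root of F. No whole code is shared between groups, and the labels do not say what its letter and numeral mean, so no block was fitted. The scripts were tested on simulated data. Alternatives were RLE factors, other filters, DESeq2 1.42.0, limma-voom (limma 3.58.1), 2 groups in the fit, the deepest library of each code and each code left out; fits without the 3 weak libraries and without E2, G1 and N3 were added after the data were seen.

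The 42 genes and all lists were chosen with earlier results of these data known. Every one of the 42 is named. Given in full are genes past the threshold, Nfkb1, Nfkb2, Rel, Rela, Relb, Nfkbia and Tnfaip3, and up to 8 per comparison with the smallest p among those whose codes do not overlap. From each further pathway list up to 3 called genes per comparison were named by p. Malt1, Map3k14, Traf5, Bcl2a1d and the values of Junb, Fos and Gadd45b were added after values were seen, as was Cd40lg for FOXP3 against LNGFR. Motifs were searched in RefSeq promoters on GRCm38.p6, and gene positions and exon lengths are those of GENCODE M21.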

Additional observations from a re-analysis of the deposited data

Results flagged for a closer look

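Each of the 42 genes was screened for a code far from the other 4 in the FOXP3 group, the only group with enough codes. A gap this wide turns up by chance in about 1 in 20 groups, and 4 of 42 genes had one. Otulin read 35.6 CPM in N3, against 14.4 to 17.3 CPM in the other 4 codes. Birc3 read 290 CPM in N3, against 149 to 176 CPM. Nfkb2 read 211 CPM in N3, against 143 to 162 CPM. Ripk1 was low in F2, at 22.4 CPM against 25.7 to 27.0 CPM. N3 is also the code with a summed B-cell marker level of 6816 CPM, and the part of B cells in these 3 values was not tested.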

How the results depend on the processing

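The 3 comparisons were repeated under 20 alternative settings, of which those without the 3 weak libraries and without E2, G1 and N3 were chosen after the data were seen. Nfkb1 kept its direction under all 20 in WT Treg against LNGFR and in FOXP3 against WT Treg. In WT Treg against LNGFR the number called lower was 0 instead of 1 with no filter on low counts and with only the 2 groups in the fit, and ran from 0 to 1 when 1 code was left out. The number called higher there was 1 with DESeq2 (3.14% of 16880 genes), with limma-voom (2.88% of 15462) and without E2, G1 and N3 (4.19% of 14688). In FOXP3 against WT Treg, 1 was called higher with RLE factors (29 of 15462 genes) and with no filter (404 of 46911). At least 10 counts in every code of a group (42 of 12242) and DESeq2 (1.27% of 22283 genes) also gave 1. So did limma-voom (2.28% of 15462), only the 2 groups (52 of 14337) and leaving out E2, G1 and N3 (3.85% of 14688). With 1 code left out the number was 0 to 1. The number called lower there was 1 with DESeq2 (12.7% of 22283 genes), 4 with limma-voom (4.61% of 15462) and 4 without E2, G1 and N3 (3.57% of 14688). In FOXP3 against LNGFR, 2 were called lower without E2, G1 and N3 (4.04% of all genes).

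Uncalled log2 fold changes turned sign as follows, and the cause was not tested. In FOXP3 against LNGFR, Rela was -0.070 with limma-voom and -0.17 without E2, G1 and N3, and Relb -0.062 without them. In WT Treg against LNGFR, Rela was -0.076 with no filter, -0.043 with limma-voom and -0.057 without the 3 codes. In FOXP3 against WT Treg, Nfkb2 was 0.14 with no filter. With limma-voom Rel, Rela, Nfkbia and Tnfaip3 were -0.27, -0.028, -0.14 and -0.51. Without E2, G1 and N3 they were -0.34, -0.12, -0.22 and -0.43. Without the 3 weak libraries Rela, Nfkbia and Tnfaip3 were -0.076, -0.15 and -0.28. With 1 code left out, FOXP3 against LNGFR ran from -0.35 to 0.14 for Nfkb1, -0.13 to 0.53 for Rela and -0.86 to 0.91 for Tnfaip3. WT Treg against LNGFR ran from -0.17 to 1.2 for Rel, -0.34 to 0.30 for Rela and -1.73 to 0.70 for Tnfaip3. FOXP3 against WT Treg ran from -0.20 to 0.16 for Nfkb2, -0.079 to 0.95 for Rel, -0.071 to 0.52 for Rela, -0.14 to 0.94 for Nfkbia and -0.28 to 1.35 for Tnfaip3. No paired analysis was possible because no whole code recurs in another group; numerals and the letter G do, with no stated meaning. E2 held 1154630 counts in all, so its levels are the least certain. With 3 codes in LNGFR and WT Treg, differences of the size seen for most of the 42 were within the spread between codes.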

Other observations

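The genes nearest to Nfkb1 on chromosome 3 were looked at as well, chosen by position. Manba, which encodes a lysosomal mannosidase, had a log2 fold change of 0.35 for WT Treg against LNGFR, Ube2d3, a ubiquitin-conjugating enzyme gene, of 0.12, and Slc39a8, a metal transporter gene, of -0.74. None of the 3 passed the test.

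Ranked by level per kb of exon among the 42, Nfkb1 was in place 8 in FOXP3 and in LNGFR and in place 25 in WT Treg. Nfkbid was in place 5, 7 and 2 in FOXP3, LNGFR and WT Treg. Tnip1 was in place 15 in FOXP3 and LNGFR and in place 9 in WT Treg.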
